A study of Drosophila melanogaster with 9 samples.

Results

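OSCs, a cultured line of somatic cells from the Drosophila ovary, were compared after siRNA-mediated depletion of Acn and after treatment with an siRNA against GFP, the control. The comparison takes the 4 polyA-selected libraries of these treatments, 2 for siAcn and 2 for siGFP, out of 9 samples in the series. It covers the 7344 of 8335 listed genes whose level averaged at least 1 RPKM (reads per kilobase, scaled to library size) over the 4 libraries. It also covers 2449 of 60779 listed introns, in 1015 genes. These introns lie in transcripts above 10 RPKM in siGFP cells, and in at least 1 of the 4 libraries the intron RPKM exceeded 10% of the RPKM of its gene. That percentage is the intron retention index.

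All cells were unmodified OSCs grown at 27°C in M3 medium, and siRNAs were introduced by nucleofection. The labels describe the polyA libraries as biological duplicates, so each p-value below measures the spread between 2 transfections of a single cell line. A further 2 polyA libraries, from cells treated with an siRNA against tsu (siTsu), entered the fits to help estimate the spread, and were used to contrast the knockdowns directly. The 3 rRNA-depleted samples, 1 per siRNA, were not analysed here.

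Acn (Acinus) is a subunit of the ASAP complex, which it forms with RnpS1 and SAP18. The exon junction complex (EJC), with the core proteins eIF4AIII, Mago and Tsu (Y14), is deposited on mRNAs upstream of splice junctions and binds ASAP as a peripheral partner. In fly cells the EJC has known roles in the splicing of genes with large introns, in mRNA localization and export and, through ASAP, in the excision of some weak introns. Follicle cells, from whose lineage OSCs derive, silence transposons with a piRNA pathway built on Piwi.

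The libraries were not equally deep, and the siAcn libraries were the shallower. Whole reads could be recovered from the intron values of every library within 0.1 read, and they put the depth at 28.8 and 30.4 M reads for siGFP, 18.7 and 13.4 M for siAcn and 15.9 and 11.5 M for siTsu. The follicle cell markers tj, Fas3, zfh1, piwi and fs(1)Yb were present in all 4 libraries, from 32.5 RPKM for Fas3 in siAcn replicate 2 to 611.8 RPKM for piwi in siGFP replicate 1. All 5 had a negative change over both replicates, as had 4437 of all 7344 genes, and only that of piwi passed, with the replicate number in the fit. In replicate 1 Fas3 was higher in siAcn than in siGFP cells (77.0 against 71.9 RPKM). Their median stood 0.19 and 0.69 below the siGFP mean in siAcn replicates 1 and 2 on the log2 scale, and the part of this in the other changes was not tested. Of the 8 germline markers 5 were listed, at up to 5.11 RPKM, and none of the 5 fat body markers was listed. Of the 7 hemocyte markers 4 were listed, with Hml at 0.0236 RPKM or less and crq between 31.0 and 35.2 RPKM. The hemocyte and fat body GATA factor srp had 8.60 and 8.63 RPKM in siGFP cells and 12.8 and 14.8 RPKM in siAcn cells. The 4 listed muscle markers of 7 stayed at 3.53 RPKM or less. Of 7 neuron markers 3 were listed, with elav between 17.6 and 22.5 RPKM and brp and nSyb below 1 RPKM. In RNA from bulk cultures, fewer cells of a type and less RNA per cell cannot be told apart.

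The Acn transcript itself was depleted. It stood at 98.1 and 140.4 RPKM in siGFP cells, at 16.8 and 16.5 RPKM in siAcn cells and at 96.3 and 104.5 RPKM in siTsu cells. Both siAcn libraries lay below all other libraries, at a mean 7.16-fold below siGFP (119 ± 29.9 against 16.7 ± 0.157 RPKM, SD, n = 2 each). On the log2(RPKM + 1) scale, used for every fold change of a transcript here, the change was -2.74 with a standard error (SE) of 0.18 and an adjusted p of 0.0166 in limma. The call was kept without either siGFP library (adjusted p = 0.0144 and 0.0391) and was lost at 0.0888 and 0.11 without siAcn replicate 1 or 2 and at 0.0522 and 0.0501 without siTsu replicate 1 or 2.

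The transcripts of the other EJC and ASAP proteins did not pass the test. The partner RnpS1 had 61.5 and 67.9 RPKM in siGFP cells and 66.6 and 60.4 RPKM in siAcn cells, and Bin1, the fly SAP18, had 84.0 and 66.3 against 68.7 and 57.8 RPKM. Pnn (Pinin), which can replace Acn in a related complex in human cells, had 41.4 and 49.8 against 45.3 and 54.6 RPKM. Among the core genes, tsu had 128.4 and 111.6 against 111.3 and 94.6 RPKM, mago 74.7 and 50.1 against 55.7 and 51.1 RPKM, and eIF4AIII 113.1 and 70.2 against 88.1 and 62.5 RPKM. For tsu and for the nuclear matrix splicing factor SRm160 (68.0 and 85.9 against 65.4 and 63.3 RPKM) both siAcn libraries lay below both siGFP libraries, for wibg (48.3 and 48.6 against 49.1 and 50.2 RPKM) both lay above, and the other genes overlapped. The log2 changes of the 9 genes beside Acn, among them the cytoplasmic EJC component btz and wibg (Pym), which recycles the EJC, ran from -0.26 to 0.13, with adjusted p from 0.808 to 0.97.

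Across all genes, few transcripts passed the test. With an adjusted p under 0.05 from limma, 4 genes were higher (0.0545% of the 7344) and 1, Acn, was lower (0.0136%), while at an unadjusted p under 0.05 there were 246 (3.35%) and 318 (4.33%). The median change over all genes was -0.05. CG15547, CG32206, CG42565 and CG13511 rose, and none of them has a described function that can be stated here with certainty.

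CG15547 (3R) had 8.26 and 7.02 RPKM in siGFP cells and 34.5 and 29.8 RPKM in siAcn cells (log2 change 1.94, SE 0.15, adjusted p = 0.0227 in limma). At 5.71 and 5.36 RPKM in siTsu cells it differed between the knockdowns by 2.34 (adjusted p = 0.00675). It was therefore high in the siAcn libraries alone, with no overlap with any of the other 4.

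CG32206 (3L) had 0.797 and 0.693 RPKM in siGFP cells and 8.87 and 12.3 RPKM in siAcn cells. Its log2 change of 2.72 (SE 0.23, adjusted p = 0.0267) was the largest rise among all 7344 genes. In siTsu cells it had 3.30 and 4.64 RPKM, between the other groups, and siAcn minus siTsu came to 1.22, short of the threshold (adjusted p = 0.0826) except with the replicate block (0.00966). It is a gene of 13 listed introns, the largest of 26248 nt.

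CG42565 and CG13511 (2R) share a listed intron of 207 nt and thus overlap, so their reads may not be independent. CG42565 had 5.19 and 3.72 RPKM against 18.1 and 16.8 RPKM in siAcn cells (log2 change 1.77, SE 0.17, adjusted p = 0.0356), and CG13511 had 1.18 and 1.65 against 7.84 and 7.29 RPKM (1.83, SE 0.18, adjusted p = 0.0356). In siTsu cells CG42565 had 19.4 and 21.2 RPKM and CG13511 8.30 and 9.12 RPKM, and siAcn minus siTsu came to -0.21 and -0.18 (adjusted p = 0.628 and 0.692). None of the 4 rises passed when any one of the 6 libraries was left out (0 genes higher each time), although their log2 changes then stayed between 1.58 and 2.93. Within the 4 siGFP and siAcn libraries alone, 2 genes were higher and 1 lower.

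The libraries also deviated by replicate number. A gene that was higher in replicate 2 than in replicate 1 of siGFP tended to be so in siAcn too (r = 0.51 across genes, which are not independent replicates), and the labels do not say what the number marks. With the replicate number as a block in the fit, 156 genes (2.12%) passed as higher and 143 (1.95%) as lower in siAcn cells. Among these 299 genes, 271 had no overlap between the siAcn and siGFP libraries, beside 858 higher (11.7%) and 1530 lower (20.8%) of all genes. Changes of at least 1 on the log2 scale were present in 73 of the higher and 53 of the lower genes, and 51 of the 299 averaged under 5 RPKM. The blocked counts moved to 73 and 83 without siAcn replicate 2, to 302 and 620 without siGFP replicate 2 and to 456 and 487 without siGFP replicate 1. A shared 1 or more listed introns ties 11 pairs among the 299 genes, whose reads may overlap.

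The direction of these changes also separated the replicates. Of the 156 genes that were higher in the blocked fit, 106 had more RPKM in replicate 2 than in replicate 1 in both siGFP and siAcn cells and 11 had less in both. Of the 143 that were lower, 118 had less in replicate 2 in both treatments and 7 had more. Among all 7344 genes, 1903 had more in replicate 2 in both treatments and 3094 had less. Since the same libraries give both values, the part of this shared direction in the changes was not tested.

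**Figure D1:**
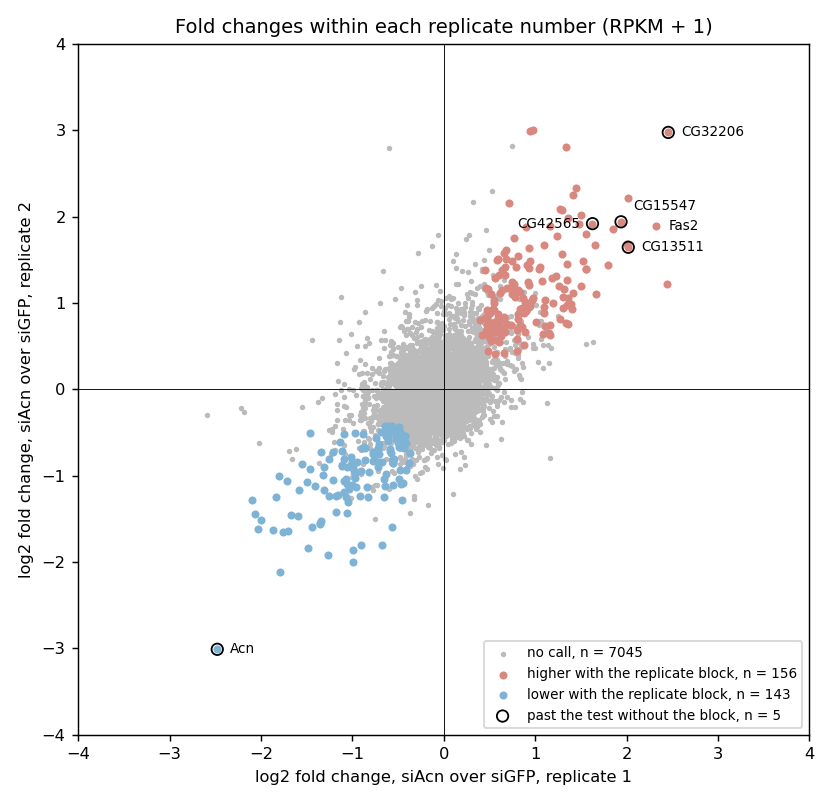
Log2 fold change of each gene between siAcn and siGFP within replicate 1 (horizontal axis) and within replicate 2 (vertical axis), on RPKM + 1. The 156 and 143 genes that passed with the replicate number as a block lie away from the origin in the same direction in both pairs, and circles mark the 5 genes that passed without it.

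Beside the 4 rises, further genes with an average of at least 5 RPKM had large changes without overlap but passed only in the blocked fit. Fas2, an adhesion molecule of the immunoglobulin family that marks follicle cells, had 11.6 and 20.05 RPKM in siGFP cells, 61.9 and 77.4 RPKM in siAcn cells and 195.45 and 241.2 RPKM in siTsu cells. Its log2 change was 2.11 (SE 0.26, adjusted p = 0.0702, and 0.000612 with the block), and the difference of -1.63 from siTsu had an adjusted p of 0.0512. With the block the difference passed (0.00145), and the order siGFP, siAcn, siTsu held in every library. Of the 12 tested follicle lineage genes 10 had a negative change, against 4437 of all 7344 genes. Their median was -0.22 against -0.05 over all genes. Fas2 was the one called higher in the blocked fit and ptc the one called lower.

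The others named by the same rule were pirk, an inhibitor of the Imd immune pathway, magu, a secreted modulator of BMP signalling, and CG2233, CG14164, CG6709, CG33521, CG4928, CG9640 and l(2)41Ab. pirk had 4.32 and 5.68 RPKM against 12.4 and 45.7 RPKM (log2 change 2.07, adjusted p = 0.36, and 0.0119 with the block). magu had 19.9995 and 9.35 against 40.3 and 81.8 RPKM (1.99, adjusted p = 0.294, and 0.0395 with the block). For both, siAcn replicate 2 was well above siAcn replicate 1. CG9640 was steadier, with 4.53 and 2.82 against 16.5 and 11.2 RPKM, and at 5.02 and 2.87 RPKM in siTsu cells its level there was 1.60 below that in siAcn cells (adjusted p = 0.0826, and 0.00189 with the block). CG6709 and CG14164 share all 4 listed introns.

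Among the falls of this rule, CG11883 had the narrowest spread, with 119.5 and 92.5 RPKM in siGFP cells against 36.8 and 33.2 RPKM in siAcn cells (log2 change -1.56, SE 0.18, adjusted p = 0.0639, and 0.000798 with the block). In siTsu cells it had 44.8 and 35.4 RPKM. miple, which encodes a secreted growth factor of the midkine and pleiotrophin family, had 24.0 and 11.9 against 6.66 and 3.12 RPKM (-1.67, adjusted p = 0.351, and 0.0017 with the block). NetA, a Netrin guidance molecule, had 25.5 and 6.34 against 5.33 and 1.70 RPKM (-1.76, adjusted p = 0.557, and 0.0357 with the block). In both genes replicate 2 was the lower library of each treatment. CG18135, CG42747, CG9521, ventrally-expressed-protein-D, CG14132, CG7406 and RhoGAP100F completed the falls, with log2 changes from -1.96 to -1.53.

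**Figure D2:**
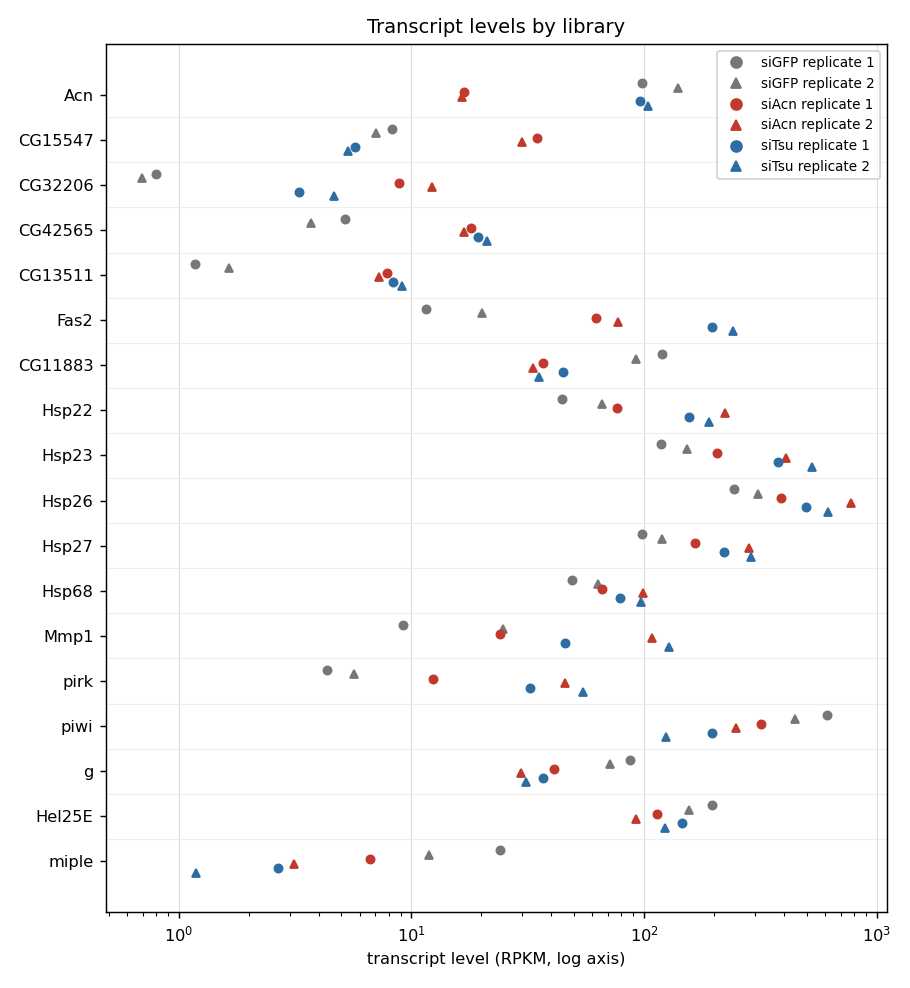
Transcript levels in RPKM (log axis) of named genes in each library, with siGFP in grey, siAcn in red and siTsu in blue, and circles and triangles for replicates 1 and 2. Acn is low only in siAcn cells (16.8 and 16.5 RPKM) and CG15547 high only there (34.5 and 29.8 RPKM), while for Mmp1 siGFP replicate 2 reaches the level of siAcn replicate 1.

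The blocked calls were counted in 45 gene lists, of which 44 had a tested member. Without the block, Acn was the one listed gene past the test. With it, 19 of the 735 listed genes were higher and 10 lower, beside 2.12% and 1.95% of all genes. These calls fell in 20 of the lists, and 24 had none.

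Heat shock genes gave the most calls of any list. These chaperones bind unfolded proteins, and the small heat shock proteins among them hold them in a soluble state. In the blocked fit 5 of 11 tested genes were higher (against 2.12% of all genes) and 0 lower, 9 of 11 were above the control without overlap (against 11.7%), and the median log2 change was 0.37 against -0.05 over all genes. Hsp26 had 243.5 and 309.1 RPKM in siGFP cells and 387.4 and 776.8 RPKM in siAcn cells (log2 change 0.997, adjusted p = 0.51, and 0.0239 with the block). Hsp23 had 118.6 and 152.4 against 205.1 and 407.5 RPKM (1.10, adjusted p = 0.457, and 0.0119 with the block). Both siAcn libraries were above both siGFP libraries, and replicate 2 was the higher in each treatment. Hsp27 (0.99), Hsp22 (1.26) and Hsp68 (0.53) also passed in the blocked fit, and Hsp22 shares 2 listed introns with Hsp67Bb. The factor that activates them, Hsf, had 38.6 and 29.3 against 33.5 and 29.6 RPKM (-0.09), and Hsp83, the fly Hsp90, had 873.3 and 1149 against 1121 and 1219 RPKM (0.22), with no call in either fit. The small heat shock genes and Hsp68 were high in siTsu cells as well, from 78.7 RPKM for Hsp68 to 615.5 RPKM for Hsp26, and siAcn minus siTsu was -0.63 to -0.01 (adjusted p of 0.456 to 0.99). With the block Hsp23 was lower than in siTsu cells (0.0459), and the other 4 did not pass.

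Genes of cell adhesion, matrix and polarity gave a few blocked calls, all of them higher, beside 2.12% of all genes. The called genes varied with the replicate. Mmp1, a matrix metalloproteinase, had 9.24 and 24.9 RPKM in siGFP cells against 24.1 and 108.7 RPKM in siAcn cells, so that siGFP replicate 2 and siAcn replicate 1 overlapped (log2 change 1.69, adjusted p = 0.737, and 0.00427 with the block). scb, an alpha integrin, had 3.95 and 7.14 against 6.71 and 20.3 RPKM (1.01, adjusted p = 0.772, and 0.0268 with the block). These were the 2 calls among 15 tested genes of basement membrane and integrins, whose median was -0.10. Of the 15, 1 (6.67%) lay above and 3 (20%) below the control without overlap, against 11.7% and 20.8% of all genes. In the polarity list shg (E-cadherin), at 30.9 and 46.9 against 54.6 and 70.6 RPKM (0.69, 0.0175 with the block), and sdt (Stardust), at 14.3 and 15.3 against 22.0 and 28.8 RPKM (0.73, 0.0196 with the block), passed out of 20. In the actin list it was sn (Fascin, an actin bundler), at 9.36 and 13.6 against 18.7 and 32.7 RPKM (1.07, 0.0135 with the block), out of 19.

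Signalling genes gave blocked calls in both directions, beside 2.12% higher and 1.95% lower of all genes. In JAK-STAT signalling the feedback inhibitor Socs36E (27.5 and 43.2 against 38.1 and 114.3 RPKM, 0.92, 0.0492 with the block) and the transcription factor Stat92E (161.4 and 172.2 against 226.6 and 234.1 RPKM, 0.46, 0.0457 with the block) passed in the blocked fit, out of 10. Only for Stat92E was the change larger than the distance between replicates. The upstream Hippo component ex passed at 1.10 and 3.10 against 5.19 and 9.82 RPKM (1.48, 0.00675 with the block), as did the Notch-modifying glycosyltransferase fng (23.7 and 20.9 against 33.3 and 40.4 RPKM, 0.70, 0.0361 with the block). ptc, the Hedgehog receptor, was lower in the blocked fit, at 113.7 and 109.1 against 77.2 and 49.9 RPKM (-0.83, 0.0263 with the block), as was the receptor Tl (9.42 and 4.94 against 4.21 and 1.75 RPKM, -1.06, 0.0316 with the block). Of 16 Ras-MAPK genes 15 were tested and none passed. rl, the MAP kinase ERK with an intron of 25405 nt, had 45.5 and 37.9 against 37.8 and 40.2 RPKM (-0.09), overlapping libraries.

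In the somatic piRNA pathway 2 of 19 tested genes were lower in the blocked fit, against 1.95% of all genes, and none was higher. The median was -0.13, against -0.05 over all genes. piwi, the nuclear Argonaute of the pathway, had 611.8 and 447.4 RPKM against 317.1 and 249.7 RPKM (log2 change -0.89, adjusted p = 0.44, and 0.00879 with the block). shu (Shutdown), a cochaperone needed to load Piwi proteins, had 147.9 and 97.3 against 103.7 and 67.4 RPKM, where the libraries overlapped (-0.52, 0.0329 with the block). The helicase gene armi (489.8 and 374.4 against 431.0 and 258.3 RPKM) and Gasz (24.2 and 17.9 against 23.1 and 16.8 RPKM) did not pass. AGO3, which is one of the germline markers and not in the somatic list, did not pass either, at 2.46 and 2.33 against 3.02 and 5.11 RPKM.

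RNA-processing genes gave few calls, all of them lower, beside 1.95% of all genes. Hel25E (UAP56), the RNA helicase of spliceosome assembly and mRNA export, had 196.4 and 156.4 RPKM against 114.2 and 92.4 RPKM (-0.77, adjusted p = 0.294, and 0.0093 with the block) and was the one call among 11 export genes. Among 25 SR proteins and splicing regulators pUf68 passed, at 79.4 and 77.2 against 57.9 and 49.8 RPKM (-0.54, 0.0435 with the block). For both, no siAcn library reached a siGFP library. None of the 20 spliceosome genes and none of the 6 factors of nonsense-mediated decay passed in either fit, with medians of -0.16 and -0.07. Of the spliceosome genes 18 had a negative change, against 4437 of all 7344 genes. Below the control without overlap lay 8 (40%) of them and 12 (48%) of the SR proteins and regulators, against 20.8% of all genes. Dcr-2, the siRNA Dicer, was the call among 10 small RNA genes (185.8 and 167.3 against 125.4 and 122.3 RPKM, -0.51, 0.0407 with the block).

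In the list of 9 heterochromatic genes, chosen for large introns, 2 were higher in the blocked fit. The share was 2.12% of all genes and 7.28% of all genes with an intron above 10 kb. The list is not a part of the latter class, as the largest listed intron of its member CG17683 has 78 nt. Parp, the poly(ADP-ribose) polymerase, had 138.7 and 166.3 RPKM against 257.0 and 263.5 RPKM (0.77, adjusted p = 0.216, and 0.0157 with the block), and Dbp80, an RNA helicase gene, had 54.1 and 82.7 against 93.2 and 174.9 RPKM (0.92, 0.00707 with the block). Both have no overlap between the treatments. lt, a vacuolar sorting gene, had 44.0 and 39.8 against 45.9 and 46.6 RPKM (0.14) and did not pass. In siTsu cells lt and rl were lower than in siAcn cells, by 0.90 and 0.995 (adjusted p = 0.0457 and 0.0466).

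Growth and housekeeping lists had next to no calls. Among 86 tested cytosolic ribosomal protein genes, RpS5b, a paralog of RpS5a, was lower in the blocked fit (137.8 and 92.3 against 83.9 and 54.3 RPKM, -0.73, 0.0126 with the block), and the median was 0.01. Mitochondrial ribosomal proteins (73 genes, median -0.16), proteasome (35, -0.10), translation initiation (24, 0.05), DNA replication (30, -0.20), mitosis (35, -0.22), apoptosis (11, -0.03), DNA damage response (15, 0.14), ER stress (11, -0.01) and autophagy (20, 0.00) had none in either fit. In the mitosis list 33 of 35 genes had a negative change, against 4437 of all 7344 genes. In this list 13 genes (37.1%) had no overlap, none above, against 20.8% below among all genes. Its median was -0.08 in replicate 1 and -0.35 in replicate 2. DNA replication (27 of 30 negative, medians -0.07 and -0.35) and mitochondrial ribosomal proteins (64 of 73, -0.26 and -0.03) were mostly negative too. Translation initiation (9 of 24 negative) and DNA damage response (4 of 15) were not.

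Genes were then grouped by their introns, because EJC function depends on splicing and large introns are the known weak point of EJC-depleted cells. In the blocked fit, the share of genes called higher was 0.888% of 3717 genes whose largest listed intron is up to 0.5 kb, 1.99% of 1207 genes at 0.5 to 2 kb, 3.21% of 1090 at 2 to 10 kb and 7.28% of 632 above 10 kb. The shares called lower were 1.32%, 2.32%, 3.39% and 3.01%. Genes above 10 kb thus had more calls in both directions than the 2.12% and 1.95% of all genes, and more of them upward (46) than downward (19). Of the 698 genes with no listed intron 2.58% were higher and 1.43% lower.

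The medians of these classes lay close together. They rose in steps from -0.08 for genes with introns up to 0.5 kb, to -0.03, -0.01 and 0.04 for genes above 10 kb. Within replicate numbers the last class had 0.06 and 0.01 and the first -0.10 and -0.05. The difference between the siGFP replicates had the same order: replicate 2 minus replicate 1 was -0.15 for genes up to 0.5 kb and 0.12 for genes above 10 kb, more than the treatments differed, and its part in the order was not tested. With 2 libraries against 2, an exact permutation test cannot give a p below 0.33, so no p is given for a class.

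The number of introns followed less clearly. Genes with 1 intron, 2 to 4 introns and 5 or more introns had 1.79%, 1.59% and 2.96% called higher and 1.24%, 1.63% and 3.01% called lower. Among genes with 1 to 4 introns, the share called higher went from 0.865% (largest intron up to 0.5 kb) to 6.98% (above 10 kb, 12 of 172), and among genes with 5 or more from 1.01% to 7.39% (34 of 460). The share called higher thus went up with length at either number of introns.

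The 46 genes with an intron above 10 kb that were higher in the blocked fit included, chosen after their values were seen, Fas2 (largest intron 48434 nt), the planar polarity cadherin stan (17395 nt), the cell fate determinant numb (13457 nt), the Wnt receptor fz3 (11028 nt), the synaptic SNARE gene Snap25 (51637 nt) and the chitin deacetylase gene Cda5 (18223 nt). Cda5 had 0.503 and 0.770 RPKM against 4.44 and 5.396 RPKM (1.85, adjusted p = 0.0666, and 0.00268 with the block). Snap25 had 5.51 and 6.47 against 10.8 and 14.5 RPKM (0.96, 0.0254 with the block). Both were apart from the control in every library.

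**Figure D3:**
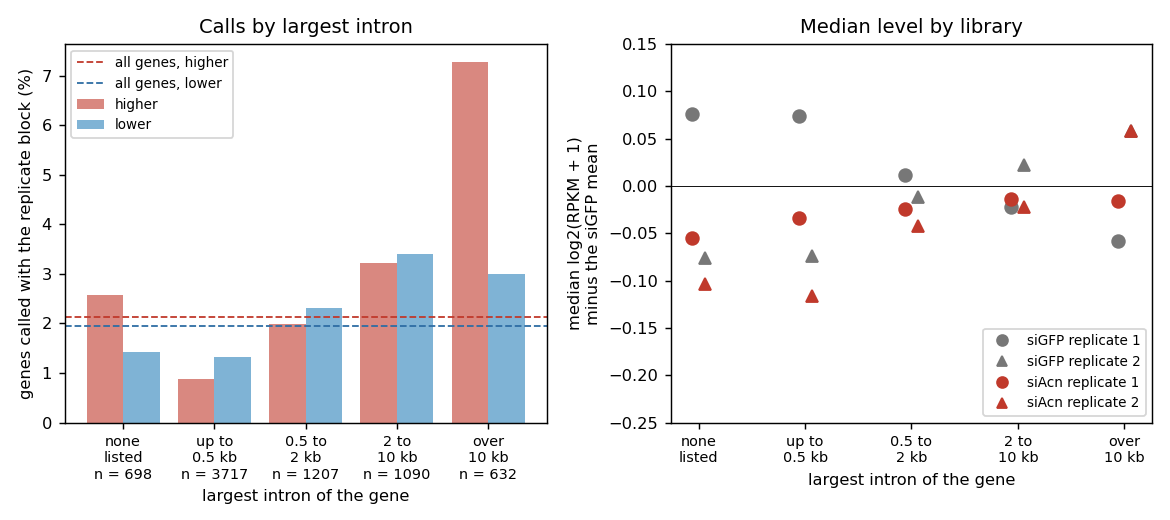
Left, the percentage of genes in each class of largest intron that passed with the replicate block, higher in red and lower in blue, with dashed lines at 2.12% and 1.95% for all genes. Right, the median of log2(RPKM + 1) in each library minus the siGFP mean. The share called higher is 7.28% above 10 kb and 0.888% up to 0.5 kb, while the siGFP replicates themselves are apart in both classes.

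The intron retention index rose past the test for 48 introns (1.96% of 2449) in 26 genes, which form 26 sets once overlapping forms of an intron are counted together, and it fell for 0 introns (0%). At an unadjusted p under 0.05 from limma there were 305 higher and 154 lower. Introns with no overlap between treatments numbered 717 higher (29.3%) and 602 lower (24.6%), and the median log2 change of the index was 0.02. With the replicate block there were 52 higher and 0 lower. The count was 1 without siGFP replicate 1 or siAcn replicate 1, 0 without siAcn replicate 2, 9 without siGFP replicate 2 and 51 or 43 without a siTsu library. An intron enters through a high index in either treatment: 17 of the 48 exceeded 10% only in siAcn libraries, those of piwi, CG8671, CG2316, corn, px and CG31731 among them. Further, 14 introns rose when a siGFP library had to exceed 10%, and 65 rose and 4 fell when the mean over the 4 libraries had to reach 10%. For transcripts over 20 RPKM 91 rose and 17 fell, and with the intron RPKM undivided 78 rose and 15 fell. Without a 10% filter none of the introns passed.

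The largest increase belonged to the 604-nt intron 4 of piwi (2L, minus strand, 10984342 to 10984945, dm3), which lies in the coding region. Its index was 6.002% and 7.89% in siGFP cells, 72.7% and 98.9% in siAcn cells and 48.2% and 53.1% in siTsu cells (log2 change 3.62, SE 0.24, adjusted p = 0.00264 in limma). The rise stayed past the test without each library except siAcn replicate 2 (adjusted p = 0.0836). The other tested piwi intron, 119 nt long (10983777 to 10983895), had 3.14% and 2.35% against 11.8% and 9.57% and did not pass (1.96, adjusted p = 0.135). The 5 further listed introns of piwi did not reach 10% in the 4 libraries.

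Mical, which encodes an actin-oxidizing enzyme of axon guidance, had the next largest increase and differed between the knockdowns. Its first intron (3R, minus strand, 5867721 to 5868513, 793 nt, in the 5′ UTR, before an intron of 5946 nt) had an index of 10.4% and 16.7% in siGFP cells and 109.2% and 146.8% in siAcn cells, on 42 and 90 against 400 and 434 reads. In siTsu cells it was 17.3% and 29.4%, above both siGFP libraries and below both siAcn libraries. The log2 change was 3.21 (SE 0.33, adjusted p = 0.00774), and the difference of 2.45 between the knockdowns passed as well (adjusted p = 0.0362). An index above 100% means that the intron had more reads per kilobase than the gene as a whole. The call was lost without siGFP replicate 1 (adjusted p = 0.0738) or either siAcn library (0.0735 and 0.18).

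CG8671 and CG9425, genes of no stated function, had a high index in both knockdowns. The first intron of CG8671 in its 468-nt form (2L, plus strand, 21263180 to 21263647, in the 5′ UTR, before an intron of 9537 nt) had 5.27% and 4.95% against 31.9% and 44.5%, with 35.9% and 37.6% in siTsu cells (2.81, adjusted p = 0.00767). The 320-nt first intron of CG9425 (3L, plus strand, 14784651 to 14784970) had 6.38% and 11.5% against 42.8% and 58.8%, with 60.2% and 58.5% in siTsu cells (2.49, adjusted p = 0.0158). siAcn minus siTsu was 0.03 and -0.24 (SE 0.25 and 0.31, adjusted p = 0.969 and 0.745).

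Internal introns made up most of the remaining 12 largest increases. In corn the index of a 455-nt intron (3L, 7137382 to 7137836) went from 3.89% and 5.29% to 21.0% and 24.4% (2.22, adjusted p = 0.0249), and in px (Plexus), a gene of wing vein patterning, a 2736-nt intron of the 5′ UTR (2R, 18431224 to 18433959) went from 4.62% and 3.04% to 17.2% and 18.7% (2.10, adjusted p = 0.044). In g (Garnet), the delta subunit of the AP-3 vesicle adaptor, the 904-nt coding intron at X, 13624678 to 13625581, went from 14.2% and 10.9% to 43.8% and 36.8% (1.68, adjusted p = 0.0249). In each the siAcn libraries were clear of the control and siTsu libraries lay between them. An annotated exon of corn overlaps its intron, so reads of that exon may add to the index.

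The other members of this group were introns of CG2316, CG15130, CG14657, CG6845 and CG31731, some with few reads. The 60-nt intron of CG2316 (chromosome 4, 208796 to 208855) had 4 and 4 reads in siGFP and 18 and 10 in siAcn libraries, for an index of 2.40% and 3.23% against 23.4% and 20.1% (2.85, adjusted p = 0.0138). CG14657 was not high in siTsu cells: its 148-nt intron (3R, 645633 to 645780, in the 3′ UTR) had 10.8% and 7.10% against 33.1% and 28.4%, with 8.64% and 9.40% in siTsu cells (1.78, adjusted p = 0.0434), though its difference between the knockdowns did not pass (1.75, adjusted p = 0.0615). In CG31731 the order was the reverse, with 4.09% and 4.05% in siGFP cells, 12.9% and 14.8% in siAcn cells and 46.0% and 35.8% in siTsu cells (1.67, adjusted p = 0.0408, and -1.52 between the knockdowns, adjusted p = 0.0615).

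**Figure D4:**
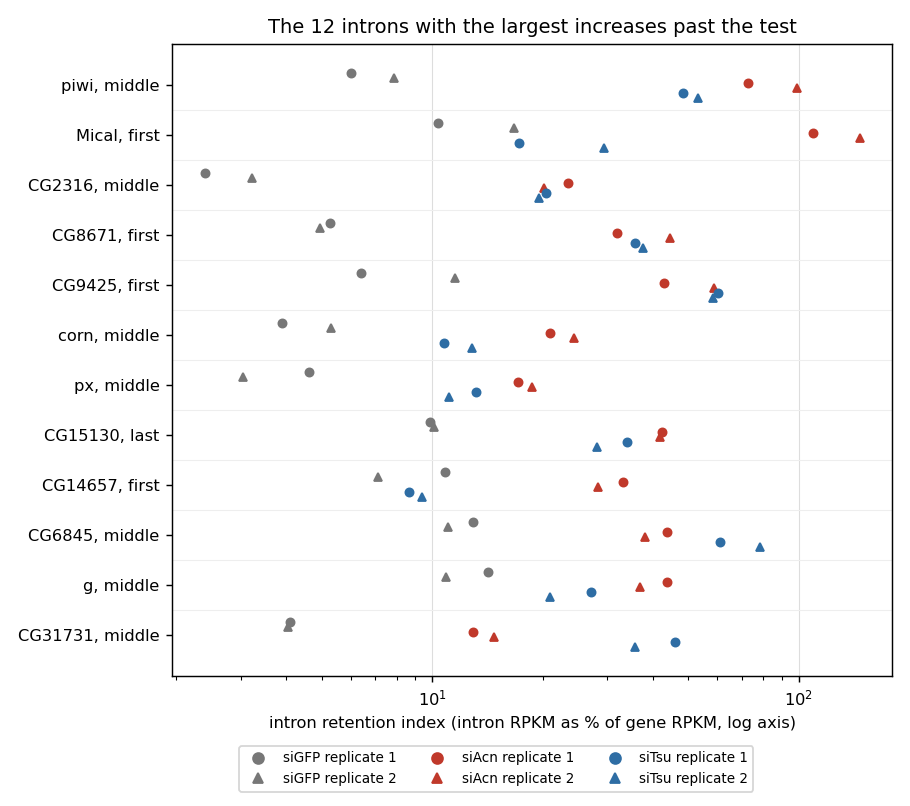
Intron retention index (intron RPKM as a percentage of gene RPKM, log axis) in each library for the 12 introns with the largest increases, with siGFP in grey, siAcn in red and siTsu in blue. The siAcn libraries are above the siGFP libraries for each intron, and for Mical the siTsu libraries (17.3% and 29.4%) lie between the siGFP and siAcn libraries.

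The further 14 introns past the test rose by log2 changes of 1.05 to 1.63. They lie in Sesn (Sestrin, a stress-induced inhibitor of TOR), if (Inflated, an alpha integrin), shi (Dynamin), AP-1gamma (a clathrin adaptor subunit), SNF4Agamma (the AMPK gamma subunit), PI4KIIIalpha (a lipid kinase), homer (a postsynaptic scaffold), inaE (a diacylglycerol lipase), RhoGAP19D, Tomosyn (a regulator of SNARE assembly), Efa6, NKAIN, tun and CG40178. The first intron of if (X, 16674230 to 16674896, in the 5′ UTR, before an intron of 8155 nt), named after its values were seen, had 23.2% and 21.4% in siGFP cells, 65.5% and 72.1% in siAcn cells and 23.7% and 30.0% in siTsu cells (1.61, adjusted p = 0.0158). Its difference from siTsu was 1.35 (adjusted p = 0.053), and the longer form of 2273 nt passed (1.60, adjusted p = 0.0362). In PI4KIIIalpha the 379-nt intron at X, 2521517 to 2521895, had 11.4% and 12.3% against 31.9% and 29.5%, with 12.5% and 9.999% in siTsu cells (1.34, adjusted p = 0.0478, and 1.40 between the knockdowns, adjusted p = 0.0615). RhoGAP19D, at 31.4% and 29.6% against 62.7% and 64.4%, had the smallest rise of the 26 (1.05, adjusted p = 0.0434).

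Across the 26 sets, 12 were first introns, 12 internal and 2 last introns, and their lengths ran from 48 to 49911 nt with a median of 635.5 nt. Of these, 11 lie in the 5′ UTR, 9 in the coding region and 1 in the 3′ UTR, and 5 could not be matched to the annotation. In corn, CG15130, Sesn and AP-1gamma an annotated exon of the same gene overlaps the named intron, and in Sesn also an exon of another gene. The part of exon reads in these rises was not tested. Of the 12 first introns 6 precede an intron above 2 kb. In all 26 the RPKM of the intron itself was higher too, by 0.51 to 3.61 on the log2 scale, in 24 without overlap, and 16 passed when the intron RPKM was tested undivided. The mean siAcn index was above the mean siTsu index in 19 of the 26. Since the 26 were chosen by their high siAcn values, this count favours siAcn and does not compare the strength of the knockdowns. The direct difference between the knockdowns passed for 7 introns above (0.286%) and 5 below (0.204%) among all tested introns.

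The transcripts of these 26 genes did not move as a group. Their median log2 change was 0.03, from -1.15 (g) to 0.38 (Mical), and 12 were negative. In the blocked fit 4 were lower, namely g, CG15130, CG6845 and piwi, and none was higher. For these a fall of the gene adds to the rise of the index. In g, whose transcript had 86.7 and 71.5 RPKM in siGFP cells and 40.9 and 29.7 RPKM in siAcn cells, the intron RPKM went from 12.3 and 7.79 to 17.9 and 10.9, with overlap. In piwi it went from 36.7 and 35.3 to 230.6 and 247.0 RPKM, far apart. The introns of g, CG15130 and CG6845 did not pass when undivided (adjusted p = 0.454, 0.448 and 0.177). Nor did those of Sesn, SNF4Agamma and inaE (adjusted p = 0.551, 0.179 and 0.163 in limma). Their genes changed by -0.91, -0.53 and -0.51 without a call. In Sesn the intron RPKM went from 35.6 and 24.2 to 98.1 and 23.2, with overlap.

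No intron fell past the test. The largest negative changes with no overlap were in ash1, Hr78, Ephrin, CG5003, CG10407 and timeout, with log2 changes of -3.66 to -2.90, which depend on the 0.1 RPKM added, and adjusted p from 0.0672 to 0.183. In ash1, a histone methyltransferase gene, the 114-nt first intron had 4 and 10 reads in siGFP cells and none in siAcn cells, with an index of 6.84% and 13.5% against 0%. In Ephrin, a ligand of the Eph receptor, the 653-nt last intron had 14.0% and 18.1% against 0% and 3.50%, on 49 and 56 against 0 and 6 reads. The reads in siAcn libraries were 0 to 6 in all of these.

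The response was uneven along the transcript. Of the 2449 tested introns, 512 exceeded 10% only in siAcn libraries and 420 only in siGFP libraries. The class values below include these introns, which are high in 1 treatment by selection. First introns had a median log2 change of 0.31 (712 introns, 380 genes), middle introns of -0.00 (1195), last introns of -0.29 (445) and the introns of single-intron genes of -0.12 (97), against 0.02 for all. The share past the test was 4.07% of first introns (29), 1.34% of middle (16) and 0.674% of last introns (3), and 0 of the single introns, against 1.96% of all. With overlapping forms counted together, 12 of 380 first, 12 of 645 middle and 2 of 255 last sets passed. The index of the median first intron was 11.3% and 12.1% in the siGFP libraries and 14.2% and 14.4% in the siAcn libraries, while that of the median last intron was 13.4% and 13.4% against 12.1% and 10.7%. First introns thus sat higher and last introns lower in both siAcn libraries, with no overlap. In siTsu cells the medians were 11.7% and 11.4% for first and 11.4% and 10.1% for last introns.

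First introns that precede a large intron had higher values than first introns as a whole. The 179 first introns (88 genes) followed by an intron above 2 kb had a median change of 0.73, with 0.82 in replicate 1 and 0.73 in replicate 2. Their median index was 10.3% and 12.3% in siGFP cells, 17.9% and 18.9% in siAcn cells and 13.4% and 13.2% in siTsu cells. In 66.5% of them both siAcn libraries were above both siGFP libraries and in 5.03% both were below, against 29.3% and 24.6% of all tested introns, and 14 (7.82%) passed the test. The 533 other first introns had a median of 0.16 and 15 calls. Counted once per set of overlapping forms, 6 of 88 sets before a large intron and 6 of 292 other first sets passed. Of the 88 sets, 61.4% lay above and 5.68% below the control without overlap, against 26.9% and 23.4% of all sets. These shares include introns that entered only through siAcn libraries, such as that of CG8671, so selection raises the upward share by an amount not measured here. Large neighbours of internal introns made less difference, with medians of -0.05 (82 introns before an intron above 2 kb) and 0.03 (166 after one).

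The place of the intron in the mRNA followed the same line. By matching gene and intron length to the current annotation, 2029 of the 2449 introns could be placed. Introns of the 5′ UTR had a median change of 0.37 (612 introns, 29 called), coding introns of -0.12 (1284, 13 called) and introns of the 3′ UTR of -0.31 (82, 1 called). Counted once per set of overlapping forms, 11 of 308 sets in the 5′ UTR, 9 of 772 coding sets and 1 of 68 sets in the 3′ UTR passed. Among first introns alone, the 472 in the 5′ UTR had a median of 0.38, with 25 called, and the 113 in the coding region -0.02, with 2 called. These calls lie in 9 of 224 and 1 of 97 sets. In the 5′ UTR the 110 middle introns had 0.37, like the first ones. The 147 first introns of the 5′ UTR before an intron above 2 kb had 0.91, and the 325 before a shorter one 0.18. Only 7 coding first introns preceded an intron above 2 kb, with a median of 0.52, and the 106 before a shorter one had -0.03. Place and the size of the next intron are thus mixed among first introns, and their separate parts were not tested. This split by place was added after the values were seen.

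The same split was measured where no annotated exon, whose spliced reads could be counted, lies inside the intron. For the 160 first introns of the 5′ UTR with no annotated exon inside the median was 0.30, and for the 78 such coding first introns it was -0.01. Counted once per set of overlapping forms, first introns before a large intron had a median of 0.64 (88 sets), first introns 0.27 (380), last introns -0.25 (255) and coding introns -0.11 (772).

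Length alone ordered the introns less. Those up to 70 nt had a median of 0.01 (337), of 71 to 500 nt -0.01 (810), of up to 2000 nt 0.09 (893), of 2 to 10 kb -0.01 (371) and above 10 kb -0.29 (38). Counted once per set of overlapping forms, the class above 10 kb had a median of -0.05 (24 sets). The class between 500 and 2000 nt held 25 of the 48 calls, 2.80% of its members, which lie in 13 of its 500 sets. Of the 38 introns above 10 kb, CG40178 had the one that passed, a 49911-nt intron on 3LHet (1257084 to 1306994) with 4.59% and 5.37% against 16.2% and 16.6%. By chromosome, the X held 18 of the calls among 523 introns (3.44%), which lie in 8 of 264 sets. The lowest median was that of 3R (-0.18, 522 introns), with 0.02 in replicate 1 and -0.26 in replicate 2. Counted once per set, chromosome 4 (-0.21, 46 sets) was lower than 3R (-0.11, 301 sets).

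**Figure D5:**
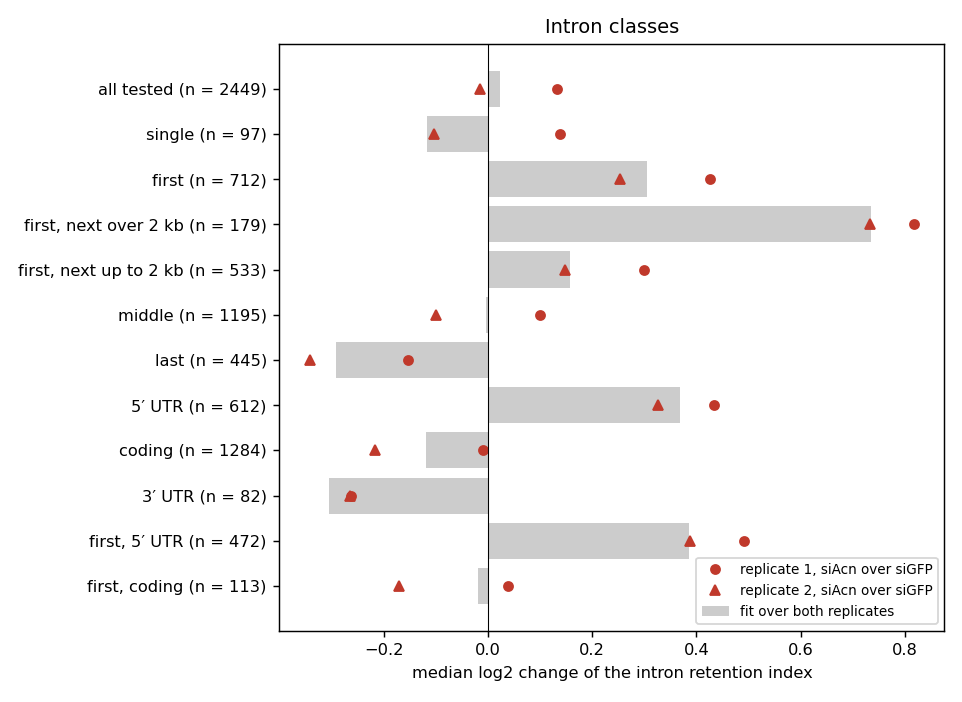
Median log2 change of the intron retention index (siAcn over siGFP) for classes of introns, as bars from the fit and as points for each replicate number. First introns before an intron above 2 kb reach 0.82 and 0.73, while last introns lie at -0.15 and -0.34.

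Set directly against each other, siAcn and siTsu cells differed in 47 genes that were higher (0.64%) and 24 that were lower (0.327%) in siAcn cells. Besides the targets Acn and tsu these included CG15547 and, chosen after their values were seen, genes whose siAcn libraries stood apart from the siGFP and siTsu libraries alike. CG12071 had 2.71 and 3.18 RPKM in siGFP, 8.80 and 6.99 in siAcn and 1.52 and 1.90 in siTsu cells (1.71 between the knockdowns, adjusted p = 0.0335). CG1143 had 3.02 and 3.36, 9.73 and 8.41, and 2.88 and 1.88 RPKM (1.59, adjusted p = 0.0443). CG7971 was the counterpart below, with 61.0 and 75.1, 26.3 and 27.4, and 55.5 and 60.3 RPKM (-1.08, adjusted p = 0.0457). Against siGFP these 3 had adjusted p of 0.18, 0.168 and 0.0639, and 0.0196, 0.0135 and 0.00148 with the block. Fitted on the 4 libraries of the knockdowns alone, 4 genes were higher and 1 lower, and with the replicate block 406 and 246.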

How the data were processed

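PolyA-selected RNA of OSCs was sequenced in strand-specific libraries. The authors kept uniquely aligned reads, mapped to the fly genome and to FlyBase transcripts and introns, and deposited RPKM per gene and per intron. Bowtie, GSNAP and dm3 are named in the submitters' processing notes. Listed intron intervals reach 35 nt into each flanking exon, which was taken off for the coordinates and lengths given here, and a read that spans a boundary may be counted for the intron. Intron numbers follow the listed intervals, with overlapping forms counted together. Recovered whole reads put the depth at 11.5 to 30.4 M reads per library.

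For genes, log2(RPKM + 1) was tested, and for introns log2 of intron over gene RPKM after adding 0.1 RPKM to each. The test was limma 3.58.1 (lmFit and a trended eBayes, R 4.3.3) on 6 libraries in 3 groups. Calls required an adjusted p (Benjamini-Hochberg, all genes or all introns) under 0.05. A count test was not used, because gene values are RPKM. The code was tested on simulated data. Tables and plots were made in Python 3.11.15 (pandas 2.3.3, numpy 2.4.6, matplotlib 3.10.9).

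Replicate numbers come from the sample titles, which do not say what they mark. Deviations from the group means correlated across genes between same-numbered libraries (r = 0.51 for siGFP and siAcn, 0.44 for siGFP and siTsu, 0.63 for siAcn and siTsu), so the fit with the replicate number as a block is given beside the fit without it. The pairing is a reading of the data and not of the design.

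Named genes are Acn and the other EJC and ASAP genes, the genes named in the study's OSC results, the 15 largest rises and falls past the test with no overlap, up to 10 further ones by unadjusted p under 0.05 at 5 RPKM or more where fewer passed, up to 4 genes per list and 2 per structure class. Introns follow the same rule with 12 rises and 6 falls. Other genes named from the blocked fit were chosen after their values were seen. The members, lists and classes were chosen with earlier results of these data known. Intron places (UTR or coding) come from Ensembl's BDGP6 annotation, release 115, matched by gene and intron length without converting coordinates. Alternatives changed the value added, the filters, the library scaling, which groups were fitted, the block, and left out single libraries. The authors' rRNA-depleted libraries were not used, having 1 sample per siRNA.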

Additional observations from a re-analysis of the deposited data

How the results depend on the processing

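The 4 higher genes became 2 with siGFP and siAcn libraries alone and 0 (0 to 0) without any one library. The 1 lower gene became 3 with libraries shifted by a trimmed mean and 0 to 1 without single libraries. With the replicate number as a block, 156 genes were higher and 143 lower. In the blocked fit these counts were 73 to 456 and 83 to 620 without single libraries, with 302 and 620 without siGFP replicate 2, 456 and 487 without siGFP replicate 1 and 73 and 83 without siAcn replicate 2. The 48 higher introns became 14 where a siGFP library had to exceed 10%, 0 with no 10% filter, 91 for transcripts over 20 RPKM, 78 for undivided intron RPKM and 0 to 51 without single libraries. The 0 lower introns became 1 and 4 with 0.01 and 1 RPKM added, 4 with a mean index of at least 10%, 17 for transcripts over 20 RPKM, 4 with siGFP and siAcn libraries alone, 15 for undivided intron RPKM and 0 to 5 without single libraries. Between siAcn and siTsu, 47 higher and 24 lower genes became 4 and 1 with those libraries alone, and 406 and 246 with the replicate block. Shifting libraries to one median moved the class medians to 0.083 (over 10 kb), -0.032 (up to 0.5 kb) and 0.014 (5 or more introns). The median of first introns before a large intron was 0.65 with a mean index of at least 10% and 0.64 with 1 form per set. Changes of sign occurred in transcripts that passed in no fit: RnpS1 had 0.020 and 0.026 after median and trimmed-mean shifts, and without single libraries RnpS1 had -0.096 to 0.043, CG8671 -0.078 to 0.18, Gasz -0.30 to 0.15, Pnn -0.0021 to 0.26, armi -0.73 to 0.0093, btz -0.027 to 0.21, eIF4AIII -0.60 to 0.080, mago -0.48 to 0.088 and rl -0.22 to 0.039. The cause of these shifts was not tested.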
